A study of Homo sapiens with 9 samples.

Results

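The matrix metalloproteinases and the urokinase system were followed in CAL-27 cells, an established cell line that came from a human squamous carcinoma of the tongue, after knockdown of LEF1 or of KDM4A. The group held 10 genes chosen by symbol, out of 33216 genes in the deposited files. These were the collagenases MMP1 and MMP13, the stromelysins MMP3 and MMP10, matrilysin MMP7, the gelatinases MMP2 and MMP9, the membrane-type enzyme MMP14, urokinase PLAU and the urokinase receptor PLAUR. All 10 symbols were found once in each of the 9 files. Cells were transfected with an siRNA against LEF1 (siLEF1), with an siRNA against KDM4A (siKDM4A) or as control (Control), with 3 libraries in each group, and RNA was taken after 48 h. What the Control cells received, and which siRNA was used where several were listed, is not given in the sources used here. All groups are 1 cell line. The paper calls the 3 samples of a group independent, but neither it nor the labels say whether they came from separate cultures on separate days. The p-values below thus measure the spread between these samples, which may be technical. Levels are given as FPKM, fragments per kilobase of exon and per 1000000 mapped reads, and as the whole reads recovered from the steps between FPKM values.

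Matrix metalloproteinases (MMPs) are zinc endopeptidases that cleave collagens, laminins, fibronectin and surface proteins. Most are secreted as inactive pro-enzymes, which other proteases open. Urokinase converts plasminogen to plasmin at the cell surface, where it is held by the urokinase receptor, and plasmin degrades matrix and opens several pro-MMPs. Tissue inhibitors of metalloproteinases (TIMPs) block MMPs, and serpins such as SERPINB2 block urokinase. In squamous carcinoma these proteases are known from the invasive edge of the tumour, made partly by tumour cells and partly by stromal cells. LEF1 is a DNA-binding partner of β-catenin, and KDM4A removes methyl groups from lysines of histone H3.

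The siRNA strands are shown first because every comparison rests on them. The antisense strands of the siRNAs listed by the study, without their overhangs, are given below 5′ to 3′, with bases 2 to 8, the seed, in capitals.
si-LEF1-01: uUCUUACCauaauugucuc
si-LEF1-02: uUCACGUGcauuaggucac
si-KDM4A-01: uUGCUUAAaggcugacggc
si-KDM4A-02: uUGUACUGaguaaagaggc
The 3′ UTRs of all protein-coding transcripts of the 10 genes (GENCODE release 29) were searched for the reverse complement of each seed, of both strands of each siRNA. MMP13 held the site of the si-LEF1-01 antisense strand (GGTAAGA), which 7.338% of 19146 genes hold. PLAU held the site of the si-LEF1-02 antisense strand (CACGTGA, 3.922% of genes) and that of its sense strand (TAGGTCA, 7.166%). The other 8 genes held none of the 8 sites. Such a match is a description of letters and not a site of action.

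Both knockdowns were visible in the targeted genes. LEF1 had 99, 83 and 104 reads in the Control libraries and 23, 21 and 21 in siLEF1, a fall of its mean from 1.15 ± 0.140 to 0.249 ± 0.0204 FPKM (mean ± SD, n = 3; log2 difference -1.84, SE 0.196, adjusted p = 0.00057). KDM4A had 1331, 1322 and 1314 reads in Control and 236, 233 and 246 in siKDM4A, a fall from 16.5 ± 0.0944 to 2.77 ± 0.0111 FPKM (log2 difference -2.53, SE 0.0402, adjusted p = 6.8e-07). LEF1 was thus a weakly expressed gene in these cells before it was knocked down. All log2 differences are on the scale log2(FPKM + 0.1), which understates changes of genes near 0.1 FPKM, and adjusted p-values are from limma over all genes tested in a comparison. A gene was called when its adjusted p was below 0.05 and its fold change above 1.5. With 3 libraries against 3 an exact permutation test cannot go below p = 0.1.

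The 9 libraries held 15263085 to 17126523 reads, and 3 reads on 1 kb of exon came to between 0.175 and 0.197 FPKM. Squamous keratinocyte markers were high, as the label of the line says, with a sum over 9 genes of 1257 to 1305 FPKM in Control and 1394 to 1409 FPKM in siLEF1, but of 504 to 520 FPKM in siKDM4A. Here 7 of 9 markers were called lower and 1 (EPCAM) higher in siKDM4A against Control, 88.9% of the list beside 12% of all genes. The sum over 7 fibroblast markers was 1.24 to 1.44 FPKM in Control, 2.80 to 3.49 FPKM in siLEF1 and 1.03 to 1.58 FPKM in siKDM4A. Of these 7 genes 3 could be tested and 2 were called higher in siLEF1, COL1A2, from 0.170 ± 0.0330 to 0.744 ± 0.0938 FPKM (log2 difference 1.64, adjusted p = 0.0024), and PDGFRB, from 0.772 ± 0.185 to 1.75 ± 0.130 FPKM (1.11, adjusted p = 0.0043). These 2 were 66.7% of those tested, beside 11.6% of all genes, and with a pseudocount of 1 FPKM 1 was called. The third, LUM, had 0.387 ± 0.111 FPKM in Control and 0.632 ± 0.241 in siLEF1 (0.56, adjusted p = 0.26). PDGFRA, THY1, DCN and POSTN were too low to be tested, and DCN and POSTN were at 0 in every Control and siKDM4A library. The sum over 7 leukocyte markers was 3.26 to 4.61, 2.89 to 3.29 and 1.89 to 2.38 FPKM in Control, siLEF1 and siKDM4A, with PTPRC at no more than 0.0140 FPKM. Of the 3 leukocyte markers tested none was called in siLEF1 by limma (1 at an unadjusted p below 0.05, 0 by limma voom). In siKDM4A 2 were called lower, 66.7% of those tested beside 12% of all genes. This became 0 or 1 when any one of the Control libraries, siKDM4A replicate 2 or siKDM4A replicate 3 was left out. The sum over 5 endothelial markers was 0.694 to 1.28 FPKM in Control, 2.02 to 2.42 FPKM in siLEF1 and 2.46 to 2.87 FPKM in siKDM4A, of which CDH5 alone made up 1.76 to 2.16 and 2.37 to 2.77 FPKM. CDH5 was called higher in siLEF1 (1.25, adjusted p = 0.0055) and in siKDM4A (1.56, adjusted p = 0.0017). It was 1 of 2 endothelial markers tested in siLEF1 and the only 1 tested in siKDM4A, beside 11.6% and 12% of all genes called. All 9 libraries came from 1 cell line. Within it, fewer cells that express a marker and less of its RNA per cell cannot be told apart in bulk RNA.

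In Control cells the system was urokinase, its receptor and MMP14, with little of any other enzyme. PLAU stood at 343 ± 9.26 FPKM and was between the 56th and the 65th most abundant gene of each library. MMP14 stood at 57.3 ± 0.615 FPKM and PLAUR at 18.5 ± 1.26 FPKM, and the ranges of these 3 genes did not overlap. MMP7 followed at 0.902 ± 0.200 FPKM, apart from all others. MMP13, MMP1 and MMP3 lay at 0.289 ± 0.150, 0.251 ± 0.0929 and 0.220 ± 0.190 FPKM with overlapping ranges, and so could not be put in order. MMP2, MMP9 and MMP10 lay last, with 14, 2 and 0 reads over the 3 Control libraries together.

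**Figure D1:**
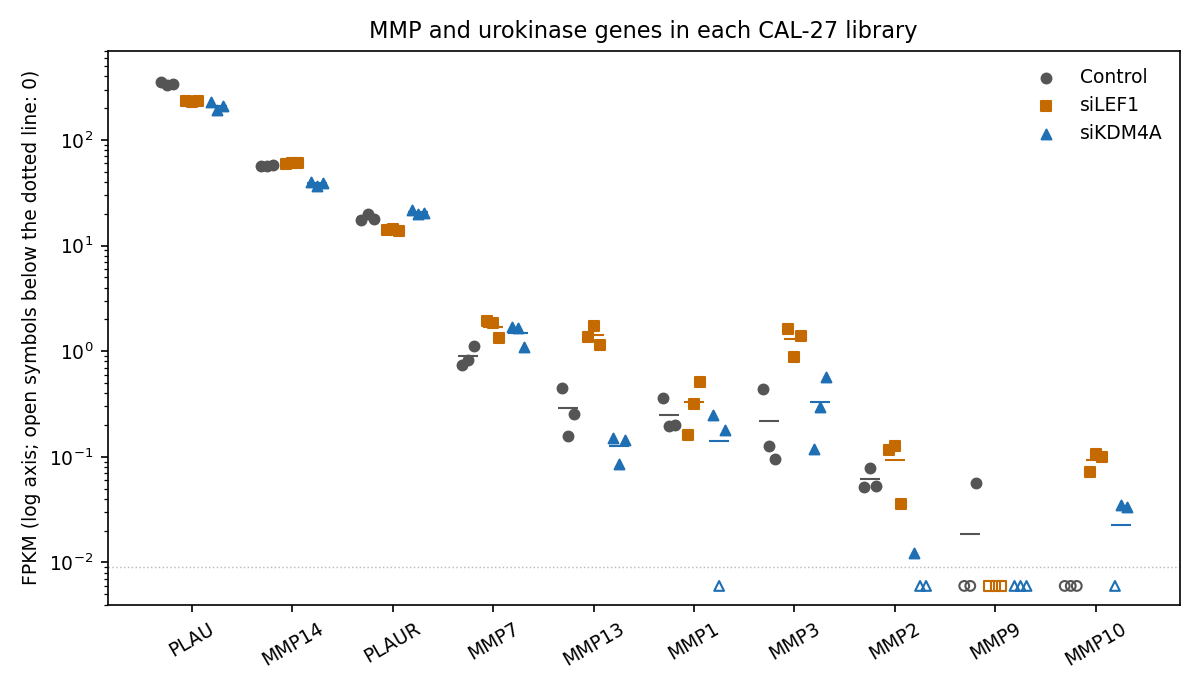
FPKM (log axis) of the 10 genes in each of the 9 CAL-27 libraries, with a short line at each group mean of 0.01 FPKM or more. Open symbols below the dotted line stand for 0 FPKM. PLAU, MMP14 and PLAUR lie between 13.8 and 353 FPKM in every library, and the other 7 genes at or below 1.95 FPKM.

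The weight of the system shifted in both knockdowns. The 10 genes together took between 0.133% and 0.138% of a Control library, between 0.103% and 0.104% of a siLEF1 library and between 0.0832% and 0.0953% of a siKDM4A library. Of this share PLAU alone held 74.1% to 75.5% in the Control libraries, 66.2% to 67.2% in the siLEF1 libraries and 68.9% to 70.3% in the siKDM4A libraries. The 7 weakly expressed MMPs together had 53 to 76 reads in a Control library, 78 to 84 in siKDM4A and 180 to 203 in siLEF1. The siLEF1 libraries thus stood apart in the weak MMPs, and both knockdowns stood below Control in the total.

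Of the 10 genes, 7 reached the mean of 0.1 FPKM needed for a test in each comparison, while MMP2, MMP9 and MMP10 did not. In siLEF1 against Control 3 of these 7 were called, all higher (MMP3, MMP13 and MMP7), beside 11.6% of all 21831 genes tested, 6.31% being called higher and 5.31% lower. None was called lower by limma or by limma voom. PLAU and PLAUR were lower at an adjusted p of 1.8e-05 and 0.0014, and missed only the fold threshold. In siKDM4A against Control 1 was called, lower (PLAU), beside 12% of 21253 genes, 4.23% being called higher and 7.8% lower. In siKDM4A against siLEF1 3 were called, all lower (MMP3, MMP13 and MMP14), beside 15.3% of 21493 genes, 5.28% being called higher and 10% lower. The median log2 difference of the 7 genes was 0.23 in siLEF1 and -0.56 in siKDM4A against Control, and -0.63 between the knockdowns, where the medians over all genes tested were -0.0069, -0.054 and -0.055. Both comparisons with Control use the same 3 Control libraries, so their values are given side by side and not as separate support.

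Counted by whether the libraries of both groups overlapped, 5 of the 10 genes lay wholly above Control in siLEF1 and 2 wholly below, where 22.2% and 24.2% of all genes tested did so, 46.3% in all. In siKDM4A 1 gene lay wholly above Control and 4 wholly below, against 20% and 27.2% of all genes tested, 47.1% in all. Between the knockdowns, 1 gene was wholly higher in siKDM4A and 6 wholly lower, against 21.6% and 28% of all genes tested, 49.6% in all. MMP10 or MMP2, both below the level needed for a test, were among these counts in each comparison.

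**Figure D2:**
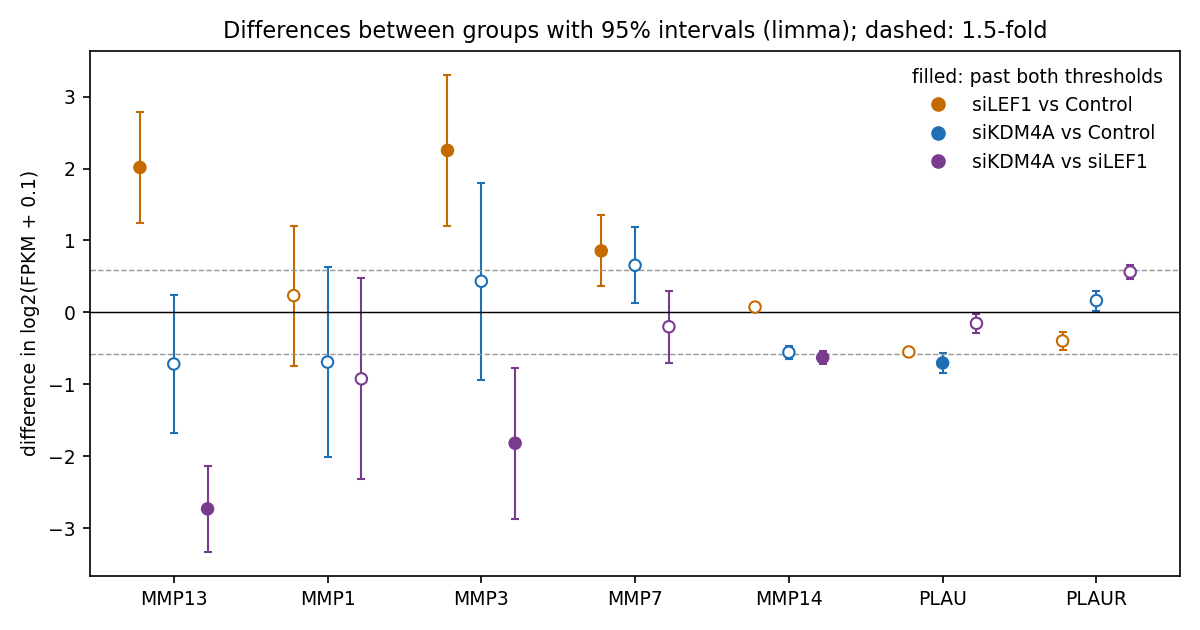
Difference in log2(FPKM + 0.1) for the 7 genes that could be tested, with 95% intervals from limma, in the 3 comparisons. Filled symbols passed both thresholds and dashed lines mark a fold change of 1.5. MMP13 (2.01) and MMP3 (2.25) lie far above 0 in siLEF1, and PLAU is below 0 in both knockdowns (-0.55 and -0.70).

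Among the collagenases, MMP13 was higher in siLEF1 and MMP1 was not measurably different. MMP13, collagenase 3, cleaves fibrillar type II collagen with particular efficiency and lies at chr11:102942995-102955734 on the minus strand (GRCh38). It had 20, 7 and 11 reads in Control, 62, 78 and 55 in siLEF1, and 7, 4 and 7 in siKDM4A. In FPKM these were 0.453, 0.159 and 0.254 in Control, 1.38, 1.73 and 1.14 in siLEF1, and 0.151, 0.0865 and 0.144 in siKDM4A. Each siLEF1 library was above each Control library, and each siKDM4A library was below each Control library. MMP13 rose in siLEF1 by 2.01 on the log2 scale (SE 0.321, adjusted p = 0.0034, ratio of means 4.90), and by 0.91 with a pseudocount of 1 FPKM in place of 0.1 (adjusted p = 0.0024). In siKDM4A the difference from Control was -0.72 (SE 0.400, 95% interval -1.67 to 0.24, adjusted p = 0.23) and did not pass the test. Between the knockdowns MMP13 was lower in siKDM4A, with a log2 difference of -2.73 (SE 0.2497, adjusted p = 0.00022).

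MMP1, interstitial collagenase, which opens the triple helix of type I collagen, lies at chr11:102789920-102798160. It had 11, 6 and 6 reads in Control, 5, 10 and 17 in siLEF1, and 8, 0 and 6 in siKDM4A. The groups overlapped. Its log2 difference was 0.23 in siLEF1 (95% interval -0.74 to 1.21, adjusted p = 0.71) and -0.69 in siKDM4A (95% interval -2.01 to 0.63, adjusted p = 0.41) against Control. Both intervals include more than a 1.5-fold difference in either direction, so at this depth a change of that size was not detectable. MMP1 shares 150 exon bases and MMP3 shares 32 with WTAPP1 on the opposite strand, which was listed at 0 to 0.0529 FPKM.

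Of the stromelysins, MMP3 was higher in siLEF1, and MMP10 was at the edge of detection. MMP3, stromelysin 1, degrades proteoglycans, laminin and fibronectin and opens pro-MMP1, and lies at chr11:102835801-102843803. It had 14, 4 and 3 reads in Control, 53, 29 and 49 in siLEF1, and 4, 10 and 20 in siKDM4A, which is 0.439, 0.126 and 0.0960 FPKM, 1.63, 0.889 and 1.40 FPKM, and 0.119, 0.299 and 0.570 FPKM. The siLEF1 libraries were above all others, whereas Control and siKDM4A overlapped. MMP3 rose in siLEF1 by 2.25 on the log2 scale (SE 0.441, adjusted p = 0.0082, ratio of means 5.94), and by 0.92 with a pseudocount of 1 FPKM (adjusted p = 0.0062). The Control mean rests largely on replicate 1, without which it was 0.111 FPKM and the ratio of means 11.8. In siKDM4A the difference from Control was 0.43 (95% interval -0.94 to 1.80, adjusted p = 0.62), and the ratio of means was 1.496, or 2.97 without Control replicate 1 and 0.949 without siKDM4A replicate 3. Between the knockdowns it was -1.82 (SE 0.439, adjusted p = 0.017), and this call was lost without siLEF1 replicate 1 (-1.65, adjusted p = 0.062) or without siLEF1 replicate 3 (-1.75, adjusted p = 0.063).

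MMP10, stromelysin 2, close in sequence to MMP3, lies at chr11:102770503-102780628. It had no read in any Control library, 2, 3 and 3 reads in siLEF1, and 0, 1 and 1 in siKDM4A. No library exceeded the 3 reads that a count of 0 allows, so no fold change is given. With no filter on low values it was called higher in siLEF1 by limma (adjusted p = 0.015), on 8 reads in all.

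MMP7, matrilysin, a small MMP without the hemopexin domain that epithelial cells themselves make, was higher in siLEF1. It is long known as a target of β-catenin and its TCF/LEF partners, and lies at chr11:102520508-102530753. It had 27, 30 and 40 reads in Control, 72, 68 and 53 in siLEF1, and 64, 63 and 44 in siKDM4A, or 0.747, 0.832 and 1.13 FPKM, 1.95, 1.84 and 1.34 FPKM, and 1.68, 1.66 and 1.11 FPKM. All siLEF1 libraries were above all Control libraries, while siKDM4A replicate 3 fell just under Control replicate 3. MMP7 rose in siLEF1 by 0.85 on the log2 scale (SE 0.207, adjusted p = 0.019). This call was lost without Control replicate 1 (0.74, adjusted p = 0.060), Control replicate 2 (0.81, 0.061), siLEF1 replicate 1 (0.76, 0.069) or siLEF1 replicate 2 (0.80, 0.067), while the direction stayed. With a pseudocount of 1 FPKM the difference was 0.51 (adjusted p = 0.022), under the fold threshold. In siKDM4A the difference from Control was 0.65 (SE 0.222, 95% interval 0.12 to 1.19, adjusted p = 0.064) and missed the threshold. It passed without Control replicate 3 (0.81, adjusted p = 0.0498), without siKDM4A replicate 3 (0.84, adjusted p = 0.032) and in a limma voom test of the recovered reads (0.70, adjusted p = 0.027). The knockdowns did not differ detectably in MMP7 (-0.20, 95% interval -0.70 to 0.30, adjusted p = 0.51).

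The gelatinases, which degrade denatured collagen and the type IV collagen of basement membranes, were at the edge of detection. MMP2 (gelatinase A, chr16:55389700-55506691) had 4, 6 and 4 reads in Control, 9, 10 and 3 in siLEF1, and 1, 0 and 0 in siKDM4A. Every siKDM4A library was below every other library, but with no filter on low values the difference from Control gave an adjusted p of 0.055. MMP9 (gelatinase B, chr20:46008908-46016561) had 2 reads in Control replicate 3 and none in the other 8 libraries. A count of 0 there allows up to 0.0750 to 0.0827 FPKM.

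The members on chromosome 11 belong to a cluster in which the measured MMP genes all lie on the minus strand. From chr11:102520508 to 102955734, over 435 kb, 8 of them follow each other in the order MMP7, MMP20, MMP8, MMP10, MMP1, MMP3, MMP12 and MMP13, of which 5 are members and the other 3 were added after their values were seen. The cluster had 74, 49 and 66 reads in the Control libraries, 212, 191 and 185 in siLEF1, and 84, 79 and 80 in siKDM4A. Per 1000000 reads this was 4.08 ± 0.827 in Control, 12.1 ± 1.25 in siLEF1 and 4.88 ± 0.226 in siKDM4A. The siLEF1 libraries were above all others, at 2.96 times the Control mean, where siKDM4A was at 1.20 times. The sum holds the same reads as the called MMP13, MMP3 and MMP7, so it is a description and not a separate test. Within the cluster the excess in siLEF1 lay in MMP13, MMP3 and MMP7, at both ends and in the interior, while MMP20 and MMP8 stayed at 0 to 2 reads in every library. MMP12, macrophage metalloelastase, had 2, 2 and 5 reads in Control and 16, 2 and 6 in siLEF1, so 1 library carried most of its reads. The sum of fibroblast markers was also above Control in siLEF1 (2.80 to 3.49 against 1.24 to 1.44 FPKM), with COL1A2 and PDGFRB called higher, and its part in the rise of MMP3, MMP13 and MMP7 was not tested.

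**Figure D3:**
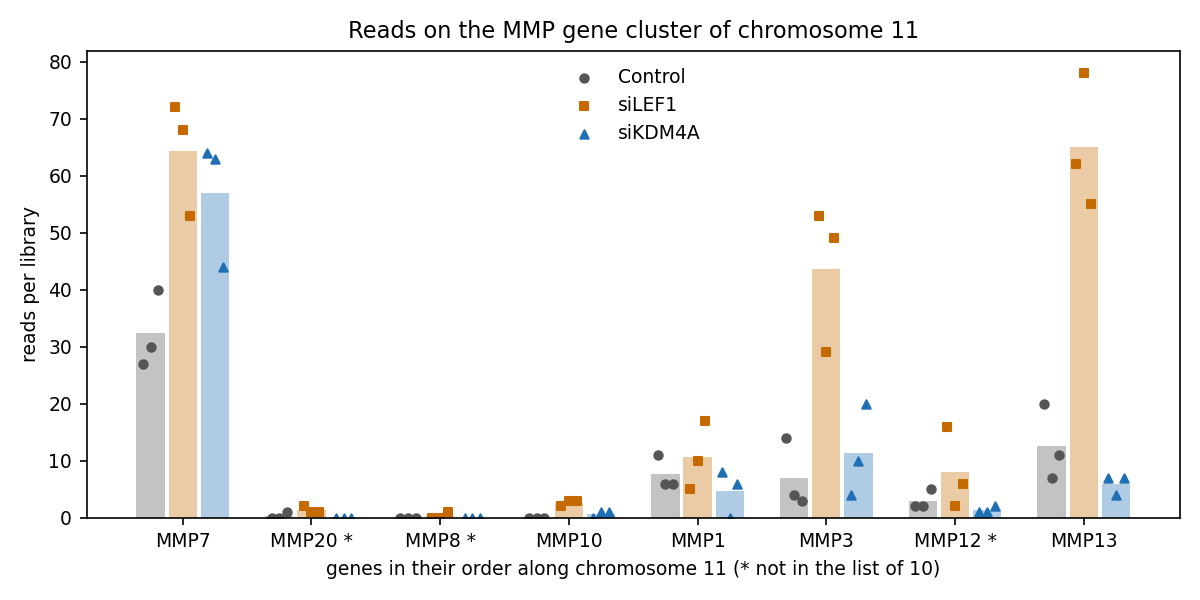
Reads per library on the 8 measured MMP genes of the chromosome 11 cluster, in their order along the chromosome. Bars are group means and points the 3 libraries of a group. In siLEF1, MMP13 has 55 to 78 reads and MMP3 has 29 to 53, where no Control library exceeds 20 and 14.

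MMP14, the membrane-type 1 enzyme that cleaves collagen at the cell surface and opens pro-MMP2 together with TIMP2, followed the other pattern, with lower levels in siKDM4A. It lies at chr14:22836557-22849027 on the plus strand. Its level was 57.1, 56.8 and 58.0 FPKM in Control, 59.7, 61.1 and 60.0 FPKM in siLEF1, and 40.4, 36.9 and 39.5 FPKM in siKDM4A, on 2687 to 4562 reads a library. No siKDM4A library came near any other, and all siLEF1 libraries were slightly above all Control libraries. In siKDM4A the log2 difference from Control was -0.56 (SE 0.0382, adjusted p = 8.9e-05), 0.680 times the Control mean. Its fold change of 1.47 was just short of the threshold of 1.5, so it was not called. The difference of 0.07 in siLEF1 (SE 0.0219, adjusted p = 0.043) was far smaller than 1.5-fold, and its adjusted p was over 0.05 without any single library (0.060 to 0.13). Between the knockdowns MMP14 was called lower in siKDM4A, by -0.63 on the log2 scale (SE 0.0375, adjusted p = 3.8e-05).

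PLAU, urokinase, was lower in both knockdowns. It lies at chr10:73909177-73917497 on the plus strand. Its level was 353, 335 and 341 FPKM in Control, 235, 231 and 236 FPKM in siLEF1, and 227, 194 and 211 FPKM in siKDM4A. All 6 knockdown libraries were below all Control libraries, and all siKDM4A libraries were below all siLEF1 libraries. In siKDM4A PLAU fell by 0.70 on the log2 scale (SE 0.0565, adjusted p = 0.00017), to 0.615 times the Control mean. In siLEF1 the difference was -0.55 (SE 0.0255, adjusted p = 1.8e-05), 0.683 times the Control mean, and its fold change of 1.46 was under the threshold. The difference between the knockdowns was small (-0.15, 95% interval -0.28 to -0.025, adjusted p = 0.065). Of PLAU's exon bases 31.1% are shared with C10orf55 on the opposite strand, which was listed at 0.307 to 0.727 FPKM, and whether reads were counted by strand is not given in the sources used here.

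PLAUR, the glycolipid-anchored receptor that holds urokinase at the surface, was lower than Control in siLEF1 and slightly above it in siKDM4A, in neither case by 1.5-fold. It lies at chr19:43646095-43670547 on the minus strand. Its level was 17.7, 19.97 and 17.9 FPKM in Control, 13.9, 14.3 and 13.8 FPKM in siLEF1, and 21.9, 20.1 and 20.2 FPKM in siKDM4A. The siLEF1 libraries were all below, and the siKDM4A libraries all above, every Control library. The log2 difference from Control was -0.40 in siLEF1 (SE 0.0520, adjusted p = 0.0014) and 0.16 in siKDM4A (SE 0.0585, adjusted p = 0.076). Between the knockdowns PLAUR was higher in siKDM4A by 0.56 (SE 0.0416, adjusted p = 9.2e-05), with a fold change of 1.48 that was again just under the threshold. The ratio of PLAU to PLAUR in FPKM was 18.6 ± 1.65 in Control, 16.7 ± 0.492 in siLEF1 and 10.2 ± 0.436 in siKDM4A.

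Next to the fall of PLAU and the low MMP14 of siKDM4A stood the keratinocyte markers, whose sum was also lower there (504 to 520 FPKM against 1257 to 1305 in Control). Not all of them fell. EPCAM was called higher (111 ± 2.92 against 73.5 ± 1.42 FPKM, 0.60, adjusted p = 2.4e-05) and CDH1 was slightly higher (0.13, adjusted p = 0.0096), while the other 7 were called lower. In siLEF1 PLAU was at 0.683 times its Control level, and the same sum was 1394 to 1409 FPKM, above every Control library. None of the 9 markers was called there by limma (0 called by limma voom). At an unadjusted p below 0.05, 5 were higher and 1 lower. These also had an adjusted p below 0.05 and missed only the fold threshold. The part of the keratinocyte markers in the levels of PLAU and MMP14 was not tested in either knockdown.

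Upstream sequences of the members were examined as a description. RefSeq upstream sequences of 250 bases (GRCh38.p14) were matched for 5 of the 10 genes: MMP7, MMP10, MMP14, PLAU (with 2 starts) and PLAUR. Genes without a matched sequence were MMP1, MMP2, MMP3, MMP9 and MMP13. The sequences thus leave out MMP3 and MMP13, the members with the largest rise in siLEF1. Motifs were searched on both strands as TGANTCA (the element of AP-1, a FOS and JUN dimer), CTTTGA (a TCF/LEF element) and CAGGAA (an ETS element), and on the forward strand as TATAAA. They were present in 6.573%, 11.21%, 24.1% and 6.803% of 35116 upstream sequences of the same length. The 3 sequences with an AP-1 match are printed 5′ to 3′ on the gene's strand, ending at the base before the start, with the matches to all 4 motifs in capitals.
MMP7 (chr11:102530748-102530997, minus): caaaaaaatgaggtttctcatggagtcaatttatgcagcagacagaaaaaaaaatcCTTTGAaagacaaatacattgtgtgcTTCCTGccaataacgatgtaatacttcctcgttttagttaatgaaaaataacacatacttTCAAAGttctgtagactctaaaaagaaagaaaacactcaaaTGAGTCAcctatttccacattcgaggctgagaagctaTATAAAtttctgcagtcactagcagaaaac
MMP10 (chr11:102780629-102780878, minus): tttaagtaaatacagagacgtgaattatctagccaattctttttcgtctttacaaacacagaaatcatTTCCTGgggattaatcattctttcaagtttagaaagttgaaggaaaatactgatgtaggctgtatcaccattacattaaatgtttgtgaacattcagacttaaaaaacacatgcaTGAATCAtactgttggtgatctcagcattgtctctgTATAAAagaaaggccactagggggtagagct
PLAUR (chr19:43670170-43670419, minus): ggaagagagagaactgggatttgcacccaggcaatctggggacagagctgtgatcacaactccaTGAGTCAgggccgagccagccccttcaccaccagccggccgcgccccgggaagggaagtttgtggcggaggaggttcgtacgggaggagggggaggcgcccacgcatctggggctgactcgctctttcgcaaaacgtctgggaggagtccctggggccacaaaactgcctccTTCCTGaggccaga
MMP7 and MMP10 share a layout, with an AP-1 match at -67 to -61 in both and a TATA match at -30 to -25 and -31 to -26. MMP7 alone of the 5 genes held TCF/LEF matches, at -194 to -189 and, on the other strand, at -108 to -103. The AP-1 match of PLAUR lay farther out, at -186 to -180. An ETS match was held by MMP7 (-168 to -163), MMP10 (-182 to -177), PLAUR (-14 to -9) and MMP14 (-84 to -79), for which it was the only match. Neither PLAU sequence held any of the 4 motifs. These are matches of letters in 250 bases, with no measurement of binding.

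**Figure D4:**
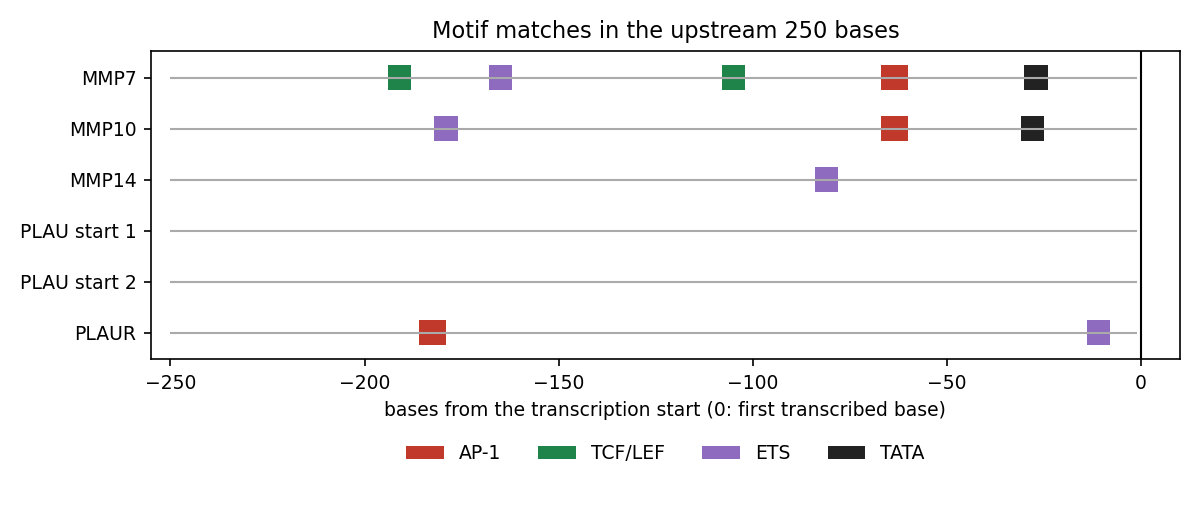
Positions of the motif matches in the 250 bases before the transcription start, for the 5 genes with a matched upstream sequence (6 sequences), in bases from the start. MMP7 and MMP10 have an AP-1 and a TATA match at nearly the same distance, MMP7, MMP10, MMP14 and PLAUR have an ETS match, and the PLAU sequences have none of the motifs.

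The 10 inhibitors that could be tested, of 12 listed, were mostly higher in siLEF1, where 6 were called higher and 1 lower, with a median log2 difference of 0.64. This was 70% of those tested, beside 11.6% of all genes. SERPINE2 (protease nexin 1, a serpin that blocks urokinase and thrombin) rose from 1.99 ± 0.152 to 7.86 ± 0.424 FPKM (log2 difference 1.93, adjusted p = 1.1e-05). SERPINA5, the protein C inhibitor, rose from 0.492 ± 0.0307 to 1.58 ± 0.216 FPKM (1.502, adjusted p = 0.00061), and TIMP4 rose from 0.941 ± 0.242 to 2.30 ± 0.120 FPKM (1.23, adjusted p = 0.0022). With a pseudocount of 1 FPKM these 2 differences were 0.79 and 0.77. SERPINB2 fell from 5.23 ± 0.943 to 2.67 ± 0.217 FPKM (-0.93, adjusted p = 0.0020). The other 3 called higher, named after their values were seen, were TIMP2 (0.63), TIMP3 (0.91) and SERPINB5 (0.64).

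In siKDM4A the inhibitors had no common direction, with 1 called higher, 1 lower (20% of those tested, beside 12% of all genes) and a median of -0.30. SERPINE2 rose to 4.82 ± 0.2501 FPKM (1.24, adjusted p = 8.8e-05), and SERPINB2 fell to 2.67 ± 0.461 FPKM (-0.94, adjusted p = 0.0047). SERPINE2 and SERPINB2 were thus called in the same direction in both comparisons, which share the Control libraries. Between the knockdowns 6 inhibitors were called lower in siKDM4A and none higher (0 at an unadjusted p below 0.05, 0 by limma voom). This was 60% of those tested, beside 15.3% of all genes, 5.28% being called higher and 10% lower.

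In FPKM, MMP14 was 1.74 ± 0.0696 times TIMP2 in Control, 1.18 ± 0.0340 times in siLEF1 and 1.21 ± 0.0642 times in siKDM4A. The lower ratio came with higher TIMP2 (50.9 against 32.9 FPKM) in siLEF1 and with lower MMP14 in siKDM4A. Every knockdown library was below every Control library in this ratio, which was chosen after the values were seen and was not tested.

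**Figure D5:**
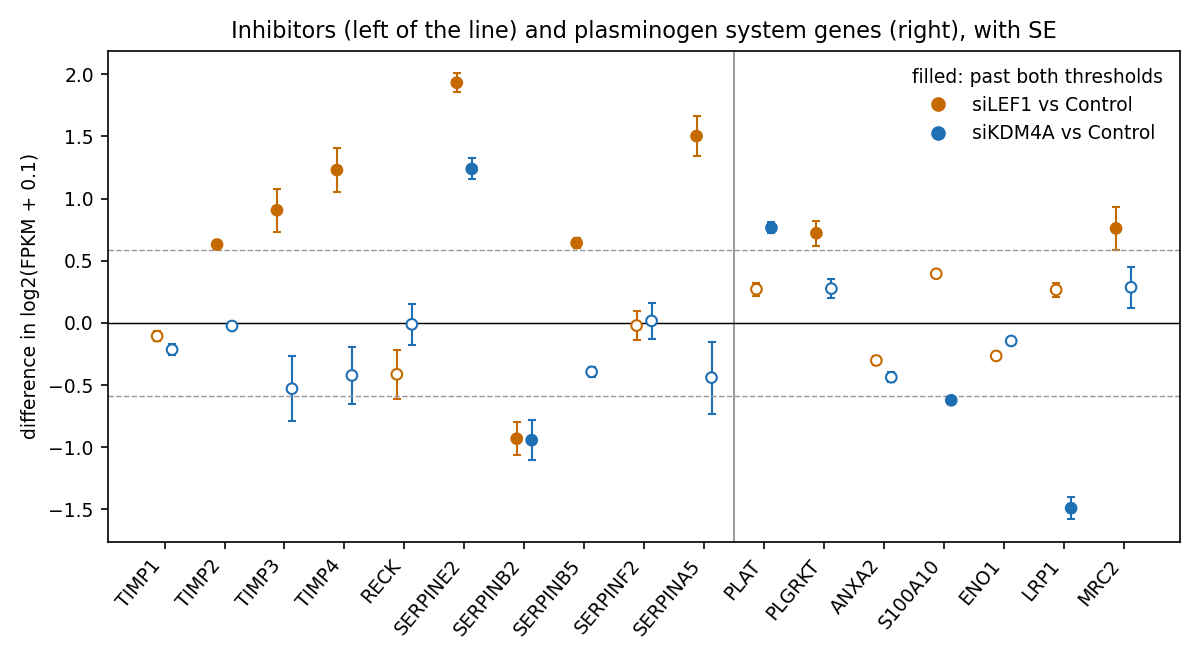
Difference in log2(FPKM + 0.1) from Control, with SE, for the 10 inhibitors (left of the line) and the 7 plasminogen system genes (right) that could be tested. Filled symbols passed both thresholds. SERPINE2 is higher in both knockdowns (1.93 and 1.24), and LRP1 is lower in siKDM4A (-1.49).

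Of the 7 plasminogen system genes tested, out of 9 listed, 2 were called higher in siLEF1 and none lower (2 lower at an unadjusted p below 0.05, 0 by limma voom). This was 28.6% of those tested, beside 11.6% of all genes. Without siLEF1 replicate 3, or with a pseudocount of 1 FPKM, 1 was called. PLGRKT, a membrane receptor for plasminogen, rose from 7.76 to 9.43 FPKM in Control to 12.7 to 15.5 FPKM in siLEF1 (0.72, adjusted p = 0.0017), and the other was MRC2 (0.76, adjusted p = 0.016), a collagen receptor that binds the urokinase receptor, named after its values were seen. The 2 lower in siLEF1, ANXA2 (-0.30, adjusted p = 0.0010) and ENO1 (-0.27, adjusted p = 0.00015), missed only the fold threshold. In siKDM4A 1 was called higher and 2 lower, 42.9% of those tested, beside 12% of all genes. There LRP1, an endocytic receptor that clears urokinase with its inhibitor, fell from 4.82 ± 0.233 to 1.65 ± 0.146 FPKM (-1.49, adjusted p = 5.4e-05). S100A10, which with annexin A2 binds plasminogen at the surface, fell from 144 ± 2.91 to 93.5 ± 2.41 FPKM (-0.62, adjusted p = 2.0e-05). PLAT, the tissue-type activator, rose from 10.6 ± 0.522 to 18.1 ± 0.321 FPKM (0.76, adjusted p = 4.8e-05), in the cells in which PLAU fell.

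The MMPs outside the 10 genes gave calls in siKDM4A. Of 13 measured, 9 could be tested in siLEF1 and none was called by limma, although 2 were higher at an unadjusted p below 0.05 and 2 were called higher by limma voom. In siKDM4A 7 could be tested, with 1 called higher and 2 lower, 42.9% beside 12% of all genes, all named after their values were seen. MMP19 fell from 1.505 ± 0.117 to 0.249 ± 0.0255 FPKM (-2.20, adjusted p = 0.00017) and MMP28, epilysin, which keratinocytes express, fell from 0.800 ± 0.180 to 0.0349 ± 0.0324 FPKM (-2.75, adjusted p = 0.0011). MMP16, a membrane-type enzyme, rose from 0.511 ± 0.0190 to 1.03 ± 0.203 FPKM (0.87, adjusted p = 0.014). MMP15, the most abundant of the 13 and also named after its values were seen, stood at 8.30 ± 0.251 FPKM in Control. It was at 11.9 ± 0.487 FPKM in siLEF1 (0.52, adjusted p = 0.00024) and 11.7 ± 1.39 FPKM in siKDM4A (0.49, adjusted p = 0.0048). Both differences were under 1.5-fold and so were not called.

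Among 18 other secreted or surface proteases tested, 5 were called higher and none lower in siLEF1 (1 lower at an unadjusted p below 0.05, 0 by limma voom), and 2 higher and 1 lower in siKDM4A. These are 27.8% and 16.7% of the list, beside 11.6% and 12% of all genes. The 5 became 3 without Control replicate 2, siLEF1 replicate 1 or siLEF1 replicate 3, and with a pseudocount of 1 FPKM. ADAM12, a membrane-anchored metalloprotease, stood at 1.34 ± 0.0358 FPKM in Control, rose to 2.95 ± 0.0956 with siLEF1 (1.09, adjusted p = 0.00014) and rose to 5.61 ± 0.0589 with siKDM4A (1.99, adjusted p = 7.9e-06). ADAM15 rose from 14.3 ± 0.686 FPKM to 25.2 ± 0.184 (0.82) and 27.3 ± 0.774 (0.93). KLK5, an epidermal kallikrein, rose in siLEF1 from 14.7 ± 0.850 to 25.8 ± 1.28 FPKM (0.81), as did ADAM10, a sheddase, from 12.4 ± 0.613 to 18.8 ± 0.543 FPKM (0.59), whose fold change was under 1.5 in each of those 4 settings (0.55 to 0.58). CTSB, the lysosomal cathepsin B, fell in siKDM4A from 68.8 ± 2.45 to 45.1 ± 2.24 FPKM (-0.61), a fold change that was under 1.5 once Control replicate 1 (-0.58) or siKDM4A replicate 2 (-0.57) was left out.

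The listed regulators of MMP genes, all 19 of which could be tested, were called at a share near that of all genes. In siLEF1 1 was called higher and 2 lower, 15.8% beside 11.6% of all genes, where 3 were higher and 9 lower at an unadjusted p below 0.05. In siKDM4A 2 were called lower and none higher, 10.5% beside 12% of all genes, where 6 were higher and 9 lower at an unadjusted p below 0.05 and 1 was called higher by limma voom. Without siKDM4A replicate 1 the 2 became 4. In both comparisons several uncalled regulators passed the adjusted threshold and missed only the fold threshold. JUNB, an AP-1 subunit, fell from 55.1 ± 5.41 FPKM in Control to 34.7 ± 4.54 (-0.67, adjusted p = 0.0035) with siLEF1 and to 25.96 ± 6.49 with siKDM4A (-1.11, adjusted p = 0.0026). Its call in siLEF1 was lost without siLEF1 replicate 1 (-0.57). ETV5, an ETS factor, fell in siLEF1 from 14.3 ± 0.489 to 6.96 ± 0.286 FPKM (-1.03), where ETS1 rose from 8.64 ± 0.334 to 13.2 ± 0.251 FPKM (0.60, or 0.56 and not called with a pseudocount of 1 FPKM). ETV1 fell in siKDM4A from 3.66 ± 0.0872 to 2.03 ± 0.228 FPKM (-0.83).

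Of 11 ligands tested that are known to induce MMP genes, 3 were called higher and none lower in siLEF1 (3 lower at an unadjusted p below 0.05, 0 by limma voom), and 4 higher and 1 lower in siKDM4A. The shares called were 27.3% and 45.5% of the list, beside 11.6% and 12% of all genes. The 3 lower in siLEF1 missed only the fold threshold. They were IL1A (-0.29, adjusted p = 0.0026), TNF (-0.54, adjusted p = 0.00089) and TGFA (-0.39, adjusted p = 0.0012). In siLEF1 the called ligands were the cytokine IL6, from 8.06 ± 0.472 to 19.3 ± 1.12 FPKM (1.25), and the EGF receptor ligands AREG, from 31.2 ± 1.39 to 59.3 ± 2.74 FPKM (0.93), and EREG, from 10.3 ± 1.11 to 18.3 ± 0.860 FPKM (0.83). In siKDM4A, TGFB2 rose from 2.81 ± 0.141 to 10.7 ± 0.0160 FPKM (1.90), the chemokine CXCL8 from 30.1 ± 1.46 to 72.9 ± 3.29 FPKM (1.27) and EREG to 19.4 ± 1.60 FPKM (0.92), while IL1B fell from 42.7 ± 0.968 to 27.3 ± 2.05 FPKM (-0.64). Each of these 7 called differences had an adjusted p below 0.05.

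The matrix proteins on which these enzymes act included many that rose in siLEF1, where 7 of 12 tested were called higher and 1 lower. This was 66.7% of those tested, beside 11.6% of all genes, and the median log2 difference of the 12 was 0.94. In siKDM4A 6 were called higher and 3 lower, 75% beside 12% of all genes (median 0.35). The 1 called lower in siLEF1, named after its values were seen, was LAMB3. It fell from 349 ± 4.705 to 212 ± 0.423 FPKM (-0.72, adjusted p = 4.3e-06). COL4A1, of basement membrane collagen, had 8.34 ± 0.522 FPKM in Control and rose to 31.5 ± 1.10 with siLEF1 (1.91) and to 18.0 ± 0.772 with siKDM4A (1.10). COL5A1, a fibrillar collagen, rose from 11.4 ± 0.181 FPKM to 40.5 ± 1.21 with siLEF1 (1.82) and to 21.3 ± 0.430 with siKDM4A (0.89, adjusted p = 9.9e-06). Tenascin C (TNC) rose from 29.1 ± 0.946 FPKM to 67.0 ± 1.67 with siLEF1 (1.20) and to 49.5 ± 2.16 with siKDM4A (0.76, adjusted p = 3.7e-05). Fibronectin (FN1) rose from 13.1 ± 0.543 FPKM to 27.7 ± 0.0908 with siLEF1 (1.08) and to 31.4 ± 0.631 with siKDM4A (1.26). In siKDM4A the epithelial anchoring proteins COL17A1, from 125 ± 4.38 to 39.2 ± 0.461 FPKM (-1.67), and COL7A1, from 6.73 ± 0.625 to 3.17 ± 0.177 FPKM (-1.06), fell. Most of the keratinocyte markers fell there too, and the part of those markers was not tested.

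The genes whose levels over the 9 libraries were most like those of the 3 abundant members were taken from the 12586 genes whose mean reached 1 FPKM, by Pearson's r of log2(FPKM + 0.1), as a description. The 9 points are 3 groups of 3 libraries, so r here mostly compares the 3 group levels. PLAU was most like ATG2A (r = 0.992), BTN3A1 (0.990) and FUT11 (0.990), all of which had their highest mean in Control and their lowest in siKDM4A. PLAUR was most like SNX17 (0.992), RPL18 (0.988) and WDR45B (0.987), with their lowest mean in siLEF1. MMP14 was most like LPAR5 (0.997), KRT16 (0.995) and FKBP15 (0.995), with their lowest mean in siKDM4A, where KRT16, a keratin of activated keratinocytes, stood at 0.956 FPKM against 5.03 in Control.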

How the data were processed

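CAL-27 RNA was read by stranded, oligo(dT)-selected RNA-seq in 9 libraries. The submitters' processing notes name Trimmomatic, HISAT2, Cufflinks, HTSeq and the hg38 genome, without versions, and the strand setting of the counting is not given in the sources used here. The values deposited by the authors are FPKM per gene, 1 file per library. Library sizes and whole reads were recovered from the FPKM steps. For all 10 members the recovered reads were whole (within 0.01 read) with the exon length of GENCODE release 29, as was this length for 94.0% of 18048 genes above 0 in all libraries. Replicate libraries differed by more than sampling noise (chi-square per gene 2.00 to 3.52), so each counted as 1 sample.

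FPKM were tested as log2(FPKM + 0.1) with limma 3.58.1 (lmFit, eBayes with a trend, R 4.3.3) in the 6 libraries compared, keeping those whose mean reached 0.1 FPKM, with Benjamini-Hochberg adjustment. A gene was called at an adjusted p below 0.05 if its fold change was also above 1.5, as in the study. The fits were tested on simulated data. Intervals are limma's 95% intervals, and floors of 3 reads cover counting error only. Alternatives were pseudocounts of 1 and 0.01 FPKM, a minimum mean of 1 FPKM, no filter, no trend, 1 fit of 9 libraries, median-ratio scaling, the replicate number as a block, a fold change above 2, limma treat, limma voom on the recovered reads, and each library left out. Same-numbered libraries did not deviate together (r of deviations from group means -0.040 to 0.043), so the numbers were not used to pair samples.

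Named were all 10 members, LEF1 and KDM4A, per list and knockdown up to 4 called genes of largest change whose mean reached 1 FPKM, and the 3 genes most like PLAU, PLAUR and MMP14. Members and lists were chosen with earlier results of these data known. Gene coordinates are GENCODE release 29 (GRCh38). Some listed items are not reported here and are left out of the counts of their lists. MMP26 and MMP27 and protein sequences were not analysed here.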

Additional observations from a re-analysis of the deposited data

Results flagged for a closer look

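The genes below differed between the knockdowns in the direct comparison of siKDM4A with siLEF1 (limma, adjusted p below 0.05 and fold change above 1.5). Those outside the 10 members were named for a large change in one or the other knockdown, so a difference between the knockdowns is partly fixed by that choice, and nothing is read from their number. Values below are log2 differences, siKDM4A minus siLEF1. Among the members these were MMP13 (-2.73, adjusted p = 0.00022), MMP3 (-1.82, adjusted p = 0.017) and MMP14 (-0.63, adjusted p = 3.8e-05). For MMP13 and MMP3 the siLEF1 libraries stood above both other groups, and for MMP14 the siKDM4A libraries stood below both.

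Among the inhibitors and the plasminogen system, the difference was -0.69 for SERPINE2, -1.94 for SERPINA5, -1.65 for TIMP4, -1.76 for LRP1 and -1.02 for S100A10. Of the other proteases ADAM12 differed by 0.90 and KLK5 by -1.32. Of the regulators and ligands, ETV5 differed by 0.61 (0.58 without siLEF1 replicate 3 and 0.57 without siKDM4A replicate 1, neither called), CXCL8 by 1.32, TGFB2 by 1.32, IL1B by -1.09 and IL6 by -0.86. Of the matrix proteins, COL17A1 differed by -1.97, COL4A1 by -0.81, COL5A1 by -0.93 and COL7A1 by -1.92. The sum of the keratinocyte markers was lower in siKDM4A than in siLEF1 (504 to 520 against 1394 to 1409 FPKM), although EPCAM was higher (0.44). The part of these markers in the differences above was not tested.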

How the results depend on the processing

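Of the members' log2 differences recomputed under each alternative, 325 kept their direction and their side of the thresholds, 17 kept the direction but lost a call, 5 gained a call and 1 turned direction. In siLEF1 against Control the 3 called members became 1 with a minimum mean of 1 FPKM, which left 4 to test, and 0 by limma treat, and 2 to 3 when a library was left out. In siKDM4A against Control the 1 called member became 2 in 1 fit of 9 libraries and by limma voom, 0 with a fold change above 2 and by limma treat, and 1 to 2 without 1 library (2 without Control replicate 3 or siKDM4A replicate 3). Between the knockdowns the 3 called became 1 with a minimum mean of 1 FPKM and 1 by limma treat. MMP13 and MMP3 stayed called in siLEF1 without any single library (1.76 to 2.30 and 1.97 to 2.70), PLAU in siKDM4A (-0.76 to -0.65) and MMP14 between the knockdowns (-0.66 to -0.59). With a pseudocount of 1 FPKM the siLEF1 differences of MMP13 (0.91), MMP3 (0.92) and MMP7 (0.51) were smaller by over 1.5 times, as were those between the knockdowns (MMP13 -1.09, MMP3 -0.80), and MMP7 lost its call. Direction turned for MMP1 in siLEF1 without siLEF1 replicate 3 (leave-one-out range -0.060 to 0.55), CTSB in siLEF1 without siLEF1 replicate 2 (-0.051 to 0.000225), and SERPINB2 between the knockdowns without siLEF1 replicate 1 (0.044) or siKDM4A replicate 2 (-0.13 to 0.11), none of them called, and the cause was not tested. MMP1 was called between the knockdowns by limma voom (-1.76, adjusted p = 0.049).

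With the replicate number as a block, 2 members were called in siLEF1, where MMP7 lost its call (0.85, adjusted p = 0.068), 1 in siKDM4A and 3 between the knockdowns. Depth limits MMP1, MMP2, MMP9 and MMP10, with at most 17 reads a library, and MMP3, MMP7 and MMP13, with at most 78.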
